A study of Homo sapiens with 12 samples.

Results

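The transcripts described here encode proteins that read phosphatidylinositol 4-phosphate (PI4P) at the Golgi, the endoplasmic reticulum (ER) anchors they work with, and the small GTPases of the ARF family. Members were chosen by 9 Ensembl transcript identifiers, 1 per gene: OSBP (ENST00000263847), VAPA (ENST00000400000), VAPB (ENST00000475243), GOLPH3 (ENST00000265070), GBF1 (ENST00000369983), ARF1 (ENST00000272102), ARF4 (ENST00000303436), ARF5 (ENST00000000233) and ARF6 (ENST00000298316). Of these 9, 7 were found among the 18338 transcripts of the count files, and each of the 7 was listed in all 12 libraries. The identifiers of GBF1 and ARF6 were found in no file, so both genes are not analysed here. Each value below belongs to the 1 transcript named, and counts given to other transcripts of the same genes were not used.

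PI4P marks the trans-Golgi membrane, where it is made chiefly by the kinases PI4KB and PI4K2A, whereas PI4KA makes the pool at the plasma membrane. At ER-Golgi contact sites OSBP binds PI4P and active ARF1 on the Golgi side and the tail-anchored proteins VAPA and VAPB on the ER side, and it moves cholesterol to the Golgi in exchange for PI4P. GOLPH3 binds the same lipid and helps to retain glycosyltransferases in the Golgi. ARF1, ARF4 and ARF5 are loaded with GTP by GBF1 at the early Golgi and recruit coats and lipid enzymes, while ARF6 works at the plasma membrane and on endosomes.

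HEK293T, a transformed human embryonic kidney line labelled wild type, was sampled at 0, 60 and 360 min of GSK-A1, an inhibitor of PI4KA. Ribosome-protected fragments (RPF, the stretches of mRNA shielded by translating ribosomes) and polyadenylated mRNA were sequenced at each time, with 2 replicates of each, which gave 12 libraries. All 12 carry the same treatment label, and 0 min is taken as untreated from its title alone. The labels do not say whether replicates came from separate cultures, and the p-values below measure only the spread between these libraries, which may be technical. Library totals ran from 546547 to 1165740 counts in RPF and from 429026 to 1002695 counts in mRNA. The second RPF replicate of 360 min was the shallowest RPF library and had the lowest median correlation with the other RPF libraries (r = 0.842, against 0.88 to 0.914 for the rest, across transcripts with a mean of at least 10 CPM). It also held the lowest RPF value of 5 of the 7 members, so log2 changes that rest on it are given with and without it. The correlations between members were not recomputed without it. Whether the cells carry markers of the line could not be checked, because no other row was matched to a gene name here.

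Levels are given as CPM, counts normalised to a library total that was scaled by the trimmed mean of M-values. CPM is a share of a library, so a change shared by most transcripts, in cell number, RNA per cell or translation, cannot be seen in it. Each course over time, that of the ratio below included, is relative to the other transcripts. No coding lengths were at hand, so levels are followed over time within a gene and are not ranked between genes.

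**Figure D1:**
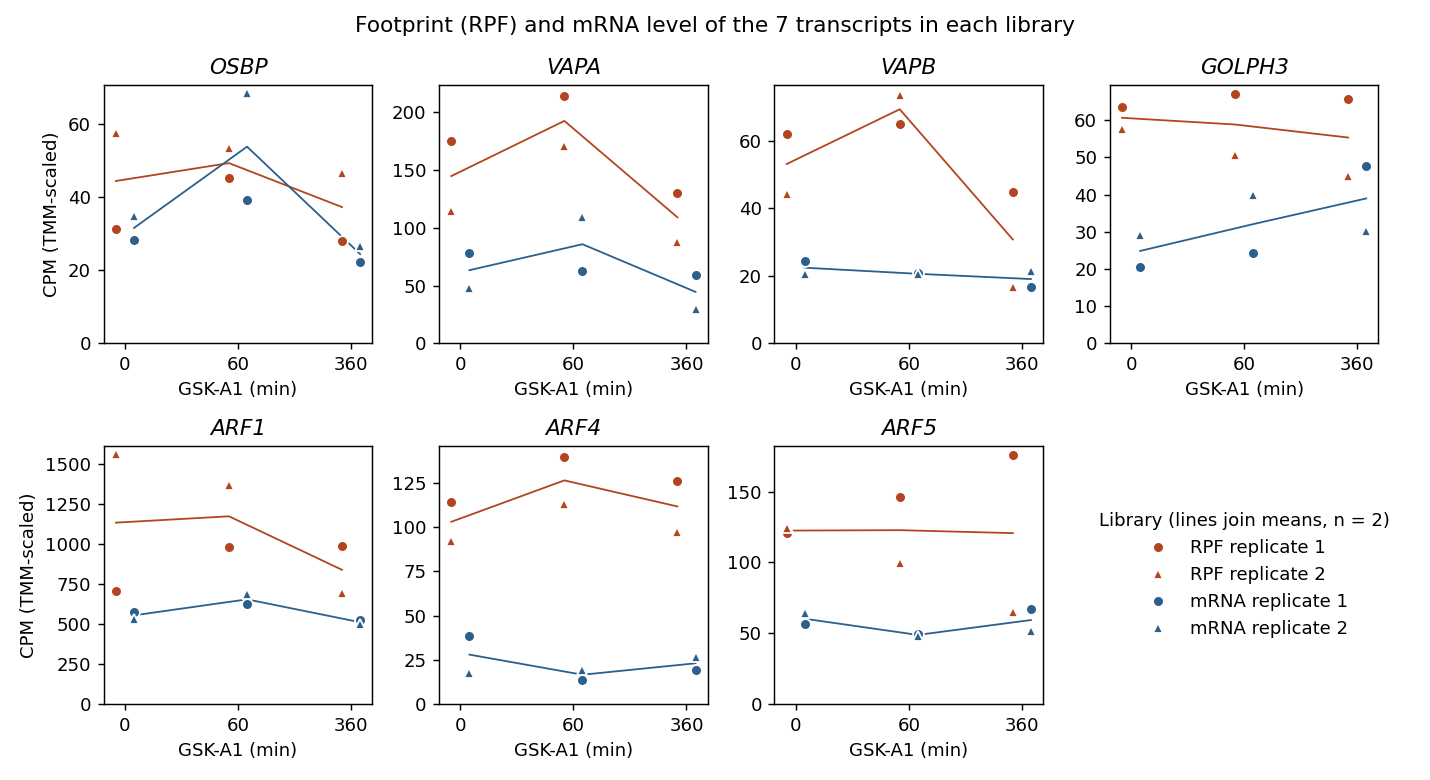
RPF (red) and mRNA (blue) level in CPM, on linear axes from 0, of the 7 transcripts in each library at 0, 60 and 360 min of GSK-A1 (times are evenly spaced, not to scale). Circles are replicate 1, triangles replicate 2, and lines join the means of 2 libraries. VAPA and VAPB footprints were below both 60 min libraries in both 360 min libraries, whereas the 2 ARF1 footprint libraries of 0 min lay far apart, at 705 and 1558 CPM.

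OSBP, the lipid exchanger, had separate mRNA values at the 3 times. Its mRNA level was 28.3 and 35 CPM at 0 min, 39.3 and 68.5 CPM after 60 min, and 22.4 and 26.6 CPM after 360 min. Both 60 min libraries thus lay above every other mRNA library, and both 360 min libraries lay below every other. The nearest values of 0 and 360 min were 28.3 and 26.6 CPM, on 22 and 15 counts. The share of all transcripts with 3 separate mRNA groups was not computed, so this separation is not read as a trait of OSBP. The means were 31.6 ± 4.73 CPM (SD, n = 2), 53.9 ± 20.6 CPM and 24.5 ± 2.97 CPM. The fitted log2 change was 0.77 (SE 0.433) from 0 to 60 min and -1.12 (SE 0.464) from 60 to 360 min. In edgeR's quasi-likelihood test the latter had an unadjusted p-value of 0.038 and a Benjamini-Hochberg adjusted p-value of 0.456, so it did not pass the threshold of 0.05. Without the second 60 min mRNA replicate these changes were 0.34 and -0.66. OSBP had 8 to 74 mRNA counts in a library. OSBP footprints had the same order of means, 44.5, 49.4 and 37.4 CPM at 0, 60 and 360 min, but the replicates of 0 min and of 360 min lay further apart than the highest and lowest of these means. They were 31.4 and 57.6 CPM at 0 min, 45.4 and 53.4 CPM after 60 min, and 28 and 46.7 CPM after 360 min. These RPF groups overlapped at all times, and the log2 changes were 0.16 (SE 0.429) at 60 min, -0.26 (SE 0.448) from 0 to 360 min and -0.42 from 60 to 360 min.

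VAPA, an ER membrane protein that holds OSBP and other lipid carriers through their FFAT motifs, had its highest mean level at 60 min and its lowest at 360 min in both assays. Its RPF level was 175 and 114 CPM at 0 min, 214 and 170.3 CPM after 60 min, and 130 and 87.9 CPM after 360 min. The 0 min values overlapped with both later times, while the 360 min values were below both 60 min values. The RPF log2 change from 60 to 360 min was -0.81 (SE 0.398, 95% interval -1.65 to 0.03), and its adjusted p-value in edgeR was 0.651. This change was -0.58 without the second 360 min RPF replicate and -1.17 without the first. VAPA mRNA was 78.4 and 48.1 CPM at 0 min, 62.4 and 109 CPM after 60 min, and 58.9 and 30.2 CPM after 360 min. Its mRNA log2 change from 60 to 360 min was -0.98 (SE 0.504), and its adjusted p-value in edgeR was 0.545. With 1 library left out it ranged from -1.52 (without the first 360 min mRNA replicate) to -0.51 (without the second 60 min mRNA replicate), and it was -0.54 without the second 360 min mRNA replicate. The mRNA log2 change from 0 to 60 min was 0.44, and it was 0.0036 without the second 60 min mRNA replicate.

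VAPB, the paralogue of VAPA with the same anchoring role, had its highest footprint level at 60 min and its lowest at 360 min. Its footprints were 61.8 and 44.3 CPM at 0 min, 64.9 and 73.6 CPM after 60 min, and 44.7 and 16.8 CPM after 360 min. Both 60 min libraries were above both 0 min libraries and above both 360 min libraries. The means were 53 ± 12.4 CPM (SD, n = 2), 69.3 ± 6.13 CPM and 30.8 ± 19.7 CPM. The log2 change from 60 to 360 min was -1.13 (SE 0.458; 95% interval -2.09 to -0.16), for which the edgeR quasi-likelihood p-value was 0.025 unadjusted and the adjusted p-value 0.578. This difference leaned on the second 360 min replicate, where VAPB had 9 counts (16.8 CPM, exact 95% Poisson interval 7.69 to 31.9, which covers counting error only). Without that library the change was -0.64, smaller than that of OSBP (-0.82), and without the first 360 min replicate it was -2.07. VAPB mRNA lay between 16.8 and 24.4 CPM in all 6 libraries, on 6 to 22 counts each, and its log2 change from 60 to 360 min was -0.09 (SE 0.498). The 2 VAP transcripts thus had the same order of RPF means, highest at 60 min and lowest at 360 min. Their r was 0.896 over the 6 RPF libraries, which include the low one. It also carries gaps between replicates, as replicate 1 lay above replicate 2 in both genes at 0 and 360 min. The higher mRNA mean of VAPA at 60 min, which rested on 1 library, had no counterpart in VAPB. The difference between their mRNA changes was not tested.

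GOLPH3, the PI4P-binding Golgi protein, had an RPF range about as narrow as that of ARF4, and narrower than those of the other members. Its highest library was at 1.5 times its lowest, against 1.52 times for ARF4, and the order was not checked under other scalings. The GOLPH3 RPF level was 63.6 and 57.6 CPM at 0 min, 67.1 and 50.5 CPM after 60 min, and 65.7 and 44.9 CPM after 360 min, so the groups overlapped throughout. GOLPH3 mRNA was 20.6 and 29.1 CPM at 0 min, 24.3 and 39.8 CPM after 60 min, and 47.7 and 30.2 CPM after 360 min. Both 360 min libraries exceeded both 0 min libraries, on 16 to 20 counts per library. The mRNA log2 change from 0 to 360 min was 0.63 (SE 0.498; 95% interval -0.5 to 1.75), and its adjusted p-value in edgeR was 0.704. It was 0.31 without the first 360 min mRNA replicate and 0.98 without the second. With all libraries, GOLPH3 was the single member whose mRNA mean was highest at 360 min. Its mRNA log2 change from 60 to 360 min was 0.25 (SE 0.48), and -0.11 without the first 360 min mRNA replicate. ARF5 was also highest at 360 min without the second 360 min mRNA replicate (0.2 from 0 min and 0.47 from 60 min). So was ARF4 without the first 0 min mRNA replicate (0.46 from 0 min, and 0.48 from 60 min with all libraries).

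ARF1, the class I GTPase that recruits COPI and clathrin adaptors and binds OSBP, was counted most deeply, with 370 to 1407 RPF counts and 187 to 741 mRNA counts per library. ARF1 footprints were 705 and 1558 CPM at 0 min, 978 and 1364 CPM after 60 min, and 983 and 692 CPM after 360 min. The 2 untreated libraries thus enclosed all but 1 of the later values. The RPF mean was 1131 ± 604 CPM (SD, n = 2) at 0 min, 1171 ± 273 CPM after 60 min and 837 ± 206 CPM after 360 min. The RPF log2 change from 0 to 360 min was -0.43 (SE 0.595). It was 0.23 without the second 0 min replicate, -0.21 without the second 360 min replicate and -0.75 without the first 360 min replicate. Its RPF SEs were the largest of the 7, at 0.594 to 0.596, although its counts were also the largest. ARF1 mRNA varied far less, at 576 and 532 CPM at 0 min, 622 and 685 CPM after 60 min, and 525 and 497 CPM after 360 min. The 3 mRNA groups did not overlap, with 60 min highest and 360 min lowest, but the nearest values of 0 and 360 min were 532 and 525 CPM. As for OSBP, the share of all transcripts with such a separation was not computed. The mRNA log2 changes were 0.24 (SE 0.418) at 60 min and -0.12 (SE 0.419) from 0 to 360 min, each smaller than its SE, and the edgeR adjusted p-values were 1 and 0.939. ARF1 has a close relative, ARF3, and the treatment of reads that match both is not stated, so its counts are uncertain to that extent.

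ARF4 and ARF5, the class II GTPases of the ER-Golgi intermediate compartment and early Golgi, had RPF values that overlapped between all times. ARF4 footprints were 114 and 91.9 CPM at 0 min, 139.6 and 113 CPM after 60 min, and 126 and 97.2 CPM after 360 min. ARF4 mRNA was 38.5 and 17.5 CPM at 0 min, 13.9 and 19.4 CPM after 60 min, and 19.6 and 26.6 CPM after 360 min, on 7 to 30 counts per library. The first 0 min library stood above the other 5, and the mRNA log2 change from 0 to 60 min moved from -0.75 (SE 0.537) to -0.04 without it.

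ARF5 footprints were 121 and 124 CPM at 0 min, 146 and 99.6 CPM after 60 min, and 176 and 65.4 CPM after 360 min. The 3 RPF means were nearly equal, at 122 ± 2.28 CPM (SD, n = 2), 123 ± 32.9 CPM and 121 ± 78.3 CPM, while the gap between replicates widened. Without the second 360 min RPF replicate the log2 change from 0 to 360 min was 0.52 in place of -0.01, and without the first it was -0.94. ARF5 mRNA stayed between 48.1 and 67.3 CPM; both 60 min libraries (49.7 and 48.1 CPM) were below the other 4, of which the lowest was 51.5 CPM. Its mRNA log2 change from 0 to 60 min was -0.3 (SE 0.371), and its adjusted p-value in edgeR was 1.

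Set side by side, 6 of the 7 members had their highest mean footprint level at 60 min and none at 360 min, while GOLPH3 was highest at 0 min. The share of all transcripts highest at 60 min was not computed, so this count is not read as a trait of the members. The means of 0 and 60 min were close for ARF1 (1131 and 1171 CPM) and ARF5 (122 and 123 CPM). With library totals alone 4 of 7 were highest at 60 min, and without the second 360 min RPF replicate 5 were, with GOLPH3 and ARF5 then highest at 360 min. In RPF from 0 to 60 min, 6 of 7 log2 changes were above 0, with a median of 0.16, where 49% of the 9653 transcripts tested were above 0. This count rested partly on ARF1 and ARF5, whose changes of 0.05 and 0.01 turned negative with library totals alone, and without the first 0 min RPF replicate it was 4 of 7, with a median of 0.04. From 0 to 360 min 6 of 7 were below 0, with a median of -0.26, against 47.9% of all. With RLE size factors it was 5 of 7 and with library totals alone 7 of 7. Without the second 360 min RPF replicate it was 4 of 7, with a median of -0.16, and without the first 6 of 7, with a median of -0.75. The median was -0.06 without the first 0 min RPF replicate and -0.05 without the second. From 60 to 360 min all 7 were below 0, with a median of -0.42, against 46.9% of all and a median of 0.0422 over all transcripts. This count included GOLPH3 (-0.08, SE 0.395) and ARF5 (-0.01, SE 0.438), which were close to 0. Without the second 360 min RPF replicate 5 of 7 were below 0, with a median of -0.26, and without the first 60 min RPF replicate 5 of 7, with a median of -0.54. Without the first 360 min RPF replicate all 7 were below 0, with a median of -0.8. Comparisons that share a time share its libraries, so these directions are not independent of each other.

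None of the 7 passed the threshold in any of the 3 RPF comparisons (edgeR; 0% of all transcripts passed in each). Unadjusted p-values under 0.05 were found for 0 of 7 from 0 to 60 min (2.31% of all), 0 of 7 from 0 to 360 min (3.91%) and 1 of 7, VAPB, from 60 to 360 min (7.8%). Groups did not overlap in 3 cases: VAPB was higher at 60 min than at 0 min, as were 15.2% of all transcripts (16% were lower), and VAPA and VAPB were lower at 360 min than at 60 min, as were 18% of all (17.5% were higher). Between 0 and 360 min the groups overlapped for all 7 members, while 13.6% of all transcripts were higher and 13.8% lower without overlap.

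**Figure D2:**
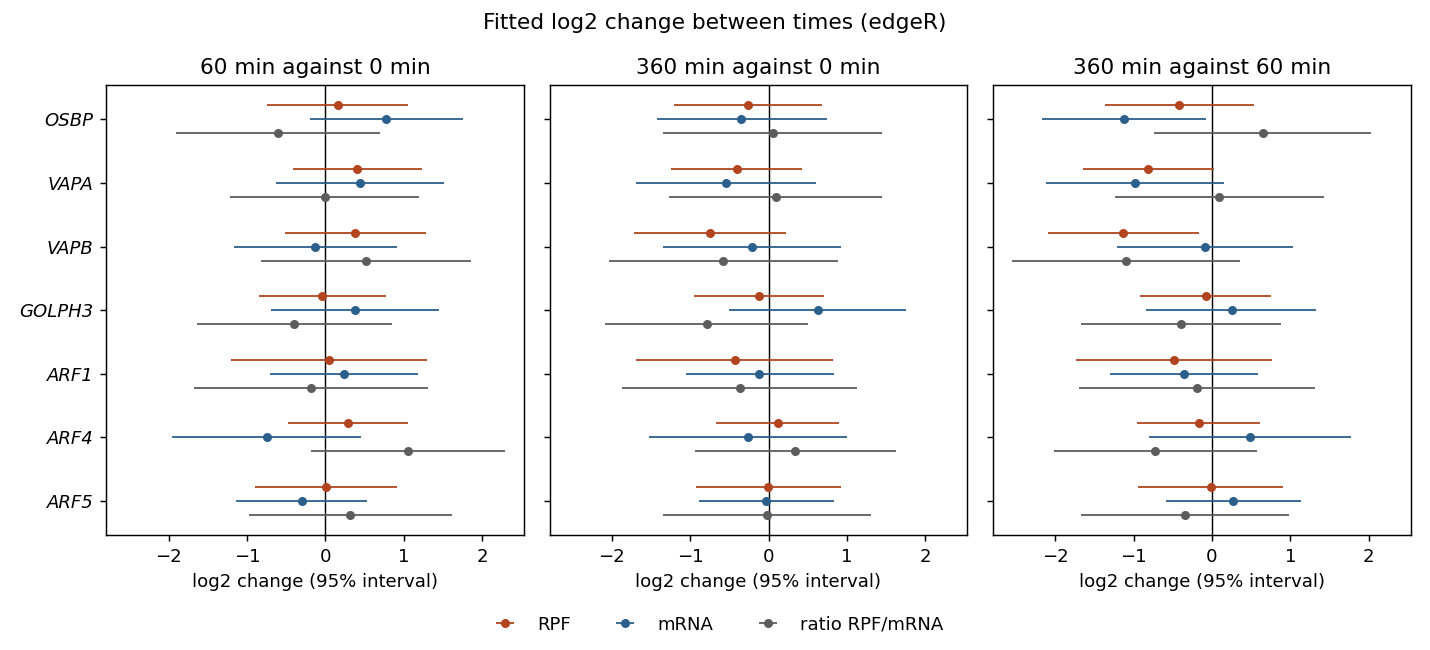
Fitted log2 change (point) with its 95% interval (bar) from edgeR for each of the 7 transcripts, in RPF (red), mRNA (blue) and their ratio (grey), for the 3 comparisons of times; the vertical line marks no change. Of the 63 intervals, 61 include 0; the exceptions are VAPB in RPF and OSBP in mRNA, both from 60 to 360 min.

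In mRNA the members divided more evenly than in RPF from 0 to 60 min and from 60 to 360 min, but not from 0 to 360 min. From 0 to 60 min 4 of 7 changes were above 0 (48.3% of the 9693 transcripts tested), with a median of 0.24, which was 0 without the second 60 min mRNA replicate. Groups did not overlap for OSBP and ARF1, which were higher (13.4% of all), or for ARF5, which was lower (12.3%). From 0 to 360 min 6 of 7 were below 0 (51.8% of all), with a median of -0.21. Without the first 0 min mRNA replicate it was 5 of 7 and -0.04, and without the second 360 min mRNA replicate 5 of 7 and -0.08. GOLPH3 was higher without overlap (19.8% of all), and OSBP and ARF1 were lower (19.1%). From 60 to 360 min 4 of 7 were below 0 (52.3% of all). There OSBP, VAPA and ARF1 were lower without overlap (19.6% of all) and ARF4 and ARF5 were higher (20.7%). The nearest values at 360 and 60 min were 19.6 and 19.4 CPM for ARF4, 51.5 and 49.7 CPM for ARF5, and 58.9 and 62.4 CPM for VAPA. They lay further apart for OSBP (26.6 and 39.3 CPM) and ARF1 (525 and 622 CPM). Overlap was not recomputed under other scalings. No member passed an adjusted p-value of 0.05 in the mRNA comparisons (0% of all transcripts in each). Before adjustment, 0, 0 and 1 of 7 had p under 0.05, against 1.37%, 8.92% and 10.3% of all in the order given.

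The RPF level divided by the mRNA level was taken as a measure of ribosome load per transcript. The region counted in each assay is not stated, so the ratio of one gene to another also carries any difference in counted length, whereas its course over time within a gene does not. At 0 min the mean ratio was 1.41 for OSBP, 2.29 for VAPA, 2.37 for VAPB, 2.44 for GOLPH3, 2.04 for ARF1, 3.68 for ARF4 and 2.03 for ARF5. All 7 were above the median of the 8632 transcripts tested in both assays (1.1), and 6 of 7, all but OSBP, were above the upper quartile of 1.7, where by definition 25% of all lie. Without the second 0 min RPF replicate the OSBP log2 ratio was -0.01 (0.49 with it), below that median, and the ARF1 log2 ratio was 0.35 (1.03 with it), below that quartile. The upper quartile was chosen as a mark after these values were seen. ARF4 stood highest of the 7, at the 96.5th percentile of all, although its ratio ranged from 2.38 to 6.54 over the 4 pairings of an RPF with an mRNA library. Without the second 0 min mRNA replicate the ARF4 log2 ratio was 1.42, below that of GOLPH3 (1.56). OSBP was lowest, at the 64.4th percentile with pairings from 0.897 to 2.04. The ranges of VAPA, VAPB, GOLPH3, ARF1 and ARF5 overlapped one another at 0 min. The ARF4 range also overlapped those of VAPA, VAPB, GOLPH3 and ARF1, and the OSBP range overlapped all 5, so the order is not separated by the spread of the libraries, apart from ARF4 above OSBP and above ARF5.

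**Figure D3:**
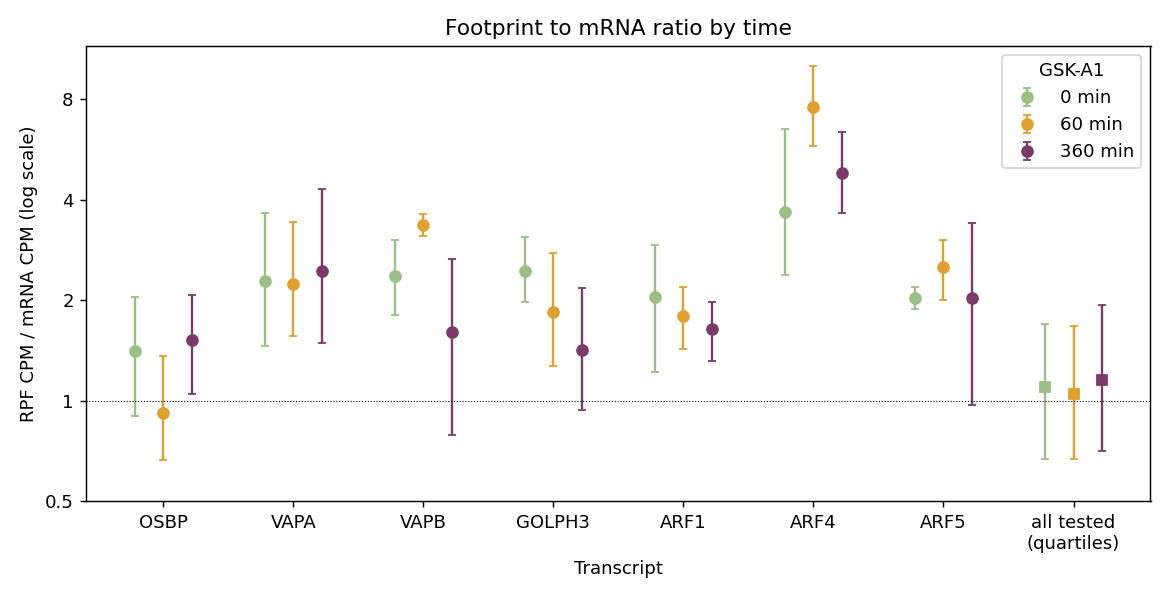
RPF CPM divided by mRNA CPM (log axis) for each transcript at 0, 60 and 360 min; points are ratios of means and bars run from the lowest to the highest of the 4 pairings of an RPF with an mRNA library. Squares on the right give the median and quartiles of the 8632 transcripts tested; ARF4 has the highest ratio of the 7 at each time.

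Over time, the ARF4 ratio went from 3.68 to 7.58 at 60 min (pairings 5.79 to 10.1) and 4.82 at 360 min. In the interaction test, the log2 change in the ratio at 60 min was 1.05 (SE 0.576; 95% interval -0.18 to 2.29), for which the edgeR p-value was 0.0884 unadjusted and the adjusted p-value 1. It was 0.37 without the first 0 min mRNA replicate, the high library named above. VAPB went from 2.37 to 3.37 at 60 min (pairings 3.12 to 3.62) and to 1.61 at 360 min (0.789 to 2.66). The VAPB change from 60 to 360 min was -1.09 (SE 0.679), with 0.948 as its edgeR adjusted p-value, and it was -0.59 without the second 360 min RPF replicate and -2.02 without the first.

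The OSBP ratio was lowest at 60 min, at 0.918 against 1.41 at 0 min and 1.52 at 360 min; its mRNA was highest there. Its log2 change at 60 min was -0.6 (SE 0.607) and its edgeR adjusted p-value 1. It was -0.09 without the second 0 min RPF replicate, the highest OSBP footprint library, and -0.2 without the second 60 min mRNA replicate. The GOLPH3 ratio declined in the means from 2.44 to 1.84 and 1.42, with a log2 change of -0.79 (SE 0.605; 95% interval -2.09 to 0.5) from 0 to 360 min and an edgeR adjusted p-value of 0.889. That change was -0.42 without the first 360 min mRNA replicate and -1.16 without the second. VAPA kept means between 2.24 and 2.45, and its fitted changes were between -0.01 and 0.09 with SEs of 0.563 to 0.632. The ratio of ARF1 was 2.04, 1.79 and 1.64 at the 3 times, and that of ARF5 2.03, 2.51 and 2.03, with pairings that overlapped between times for both genes.

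No member passed the threshold for a change in the ratio (0% of all transcripts in each comparison), and 0 of 7 had an unadjusted p-value under 0.05, against 1.75%, 5.66% and 4.69% of all from 0 to 60 min, 0 to 360 min and 60 to 360 min. The changes above 0 numbered 3, 3 and 2 of 7, against 51.2%, 50.6% and 51.4% of all, and with 1 library left out they ranged from 3 to 4, 2 to 3 and 1 to 4. For each of the 7, all 3 intervals (95%) of the ratio changes reached past 1 on the log2 scale in at least 1 direction. Across both assays and the ratio, 0 of 63 member tests passed with edgeR, the smallest adjusted p-value being 0.456, and 2 of 63 had an unadjusted p-value under 0.05. With DESeq2 the smallest adjusted p-value of a member was 0.729, and 0 tests had an unadjusted p-value under 0.05.

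For each member, the other member most like it over the 6 RPF libraries was sought. By Pearson's r of log2 CPM, GOLPH3 and ARF5 were most alike (r = 0.932), followed by VAPA and VAPB (r = 0.896); ARF4 was closest to VAPA (0.774), and ARF1 and OSBP were closest to each other (0.587). OSBP and GOLPH3 were least alike (r = -0.549). The RPF means of GOLPH3 (60.6, 58.8 and 55.3 CPM) and ARF5 (122, 123 and 121 CPM) changed little over time. In both, replicate 1 lay above replicate 2 at 60 and 360 min, so their r reflects gaps between replicates more than a course over time. Coefficients between other transcripts were not computed. GOLPH3, ARF5, VAPA and VAPB all had their lowest value in the second 360 min replicate, which these coefficients share, and they were not recomputed without it. In the 6 mRNA libraries the pairs differed: OSBP and ARF1 (r = 0.869) and VAPA and ARF1 (0.868) were most alike, and the mRNA of GOLPH3 and ARF5 had r = 0.287. OSBP, VAPA and ARF1 all had their highest mRNA value in the second 60 min replicate. These coefficients describe 6 libraries of 3 times each and carry no test.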

How the data were processed

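Per the file headers and values, the authors deposited unnormalised counts for Ensembl transcripts in 6 RPF and 6 mRNA libraries. Cutadapt 2.8, Bowtie 1.2.3 and STAR 2.7.10a appear in the submitters' processing notes. The counting program, counted region, genome build, strand and treatment of multiply mapping reads are not given in the sources used here. A transcript missing from a file was set to 0. None of the 18338 identifiers (0) matched the tables of gene names, so members were named by the identifiers of the rule, and lists of further pathway genes, coding lengths and positions were not used. Groups, times and replicate numbers came from the sample titles.

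Tests used edgeR 4.0.16 in R 4.3.3 (filterByExpr, TMM, glmQLFit, glmQLFTest) over the 6 libraries of an assay, and over all 12 libraries for the interaction of assay and time. Benjamini-Hochberg adjustment covered all transcripts tested, and 0.05 was the threshold. Each SE was obtained from the log2 change and its F statistic (their ratio, with F under a root), and 95% intervals use the fit's degrees of freedom. Correlations used log2 CPM with a prior count of 2. Replicates were compared by chi-square per degree of freedom (8.61 to 16.7), so no library was counted as a duplicate. The test was also run on simulated data, but its power with 2 replicates is not reported here. Alternatives were RLE factors, library totals, no filter, at least 10 counts in every library, DESeq2 1.42.0, the compared times alone, a replicate block and leaving out each library. All 9 identifiers of the rule are named whatever their values, but members and lists were chosen with earlier results of these data known.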

Additional observations from a re-analysis of the deposited data

How the results depend on the processing

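No member passed an adjusted p-value of 0.05 under any alternative; the smallest was 0.094, for VAPB in RPF from 60 to 360 min without the first 360 min replicate. Of 420 member changes recomputed under other scalings, filters, tests and fits, 407 kept their direction and 13 changed sign, each near 0. With RLE size factors ARF5 became 4e-04 in RPF and 0.0047 in the ratio from 0 to 360 min. With library totals alone ARF1 became -0.02 and ARF5 -0.04 in RPF from 0 to 60 min, ARF4 -0.03 in RPF from 0 to 360 min and GOLPH3 -0.01 in mRNA from 60 to 360 min. Without a filter ARF1 became -0.0028 and ARF5 -0.03 in RPF from 0 to 60 min, and OSBP -0.04 in the ratio from 0 to 360 min. With at least 10 counts in every library VAPA became 0.04 in the ratio from 0 to 60 min and ARF5 0.1 from 0 to 360 min; VAPB in RPF, and OSBP, VAPB and ARF4 in mRNA and the ratio, were not tested under that filter. With DESeq2 the VAPA ratio change from 0 to 60 min became 0.01. The cause was not tested for any of these.

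Leaving out 1 library turned 52 of 336 member changes. The log2 changes then ranged as follows: in mRNA from 0 to 360 min, ARF4 -0.72 to 0.46 and ARF5 -0.2 to 0.2. In mRNA from 60 to 360 min, GOLPH3 -0.11 to 0.66 and VAPB -0.28 to 0.04. In mRNA from 0 to 60 min, VAPB -0.25 to 0.04. In RPF from 0 to 360 min, ARF1 -0.9 to 0.23, ARF4 -0.13 to 0.28, ARF5 -0.94 to 0.52, GOLPH3 -0.47 to 0.11 and OSBP -0.67 to 0.21. In RPF from 60 to 360 min, ARF5 -0.95 to 0.5 and GOLPH3 -0.43 to 0.14. In RPF from 0 to 60 min, ARF1 -0.4 to 0.75, ARF5 -0.3 to 0.27, GOLPH3 -0.27 to 0.16 and OSBP -0.22 to 0.67. In the ratio from 0 to 360 min, ARF1 -0.84 to 0.31, ARF4 -0.35 to 0.81, ARF5 -0.94 to 0.53, OSBP -0.35 to 0.53 and VAPA -0.4 to 0.66. In the ratio from 60 to 360 min, ARF1 -0.48 to 0.06, ARF5 -1.26 to 0.2, GOLPH3 -0.76 to 0.01 and VAPA -0.38 to 0.69. In the ratio from 0 to 60 min, ARF1 -0.65 to 0.52 and VAPA -0.41 to 0.39. With 1 library left in an arm, that library is assumed to vary like the others of the fit. With RLE size factors or library totals alone none of the 7 baseline ratios moved by more than the spread of the replicates. With 1 of 2 replicates left out, a shift past that spread was not possible at the gaps seen, so that setting is no check of them. Without the second 0 min RPF replicate the log2 ratio of OSBP was -0.01 (0.49 with it) and that of ARF1 0.35 (1.03 with it).

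Over all transcripts 0 passed in each of the 9 comparisons with edgeR, and 95 of 114 alternative fits also gave 0. Without a filter the numbers were 1 in RPF from 0 to 60 min, 33 in RPF from 60 to 360 min, 17, 89 and 113 in mRNA from 0 to 60, 0 to 360 and 60 to 360 min, and 2 in the ratio from 60 to 360 min. DESeq2 gave 1, 1 and 2 in RPF, 8 and 66 in the mRNA comparisons of 360 min with 0 and 60 min, and 8 in the ratio from 60 to 360 min. Leaving out 1 library gave 0 to 1 in RPF from 0 to 60 min and from 0 to 360 min, and 0 to 75 from 60 to 360 min, the most without the first 360 min replicate. The cause was not tested.

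Nothing in the labels ties replicate numbers to a shared culture or day. Differences between replicates 1 and 2 correlated between times at 0.223 to 0.292 in RPF and at -0.371 to 0.334 in mRNA. With the replicate block 1, 2 and 7 transcripts passed in the RPF comparisons of 60 with 0 min, 360 with 0 min and 360 with 60 min, and 0 in the others. The block changed no member's call, and ARF5 in RPF from 0 to 60 min became -0.05. A crossed block in mRNA, chosen after seeing the data, gave 0 calls in each comparison. Depth limits the mRNA values of VAPB and ARF4 most, with counts down to 6 and 7 per library.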
